A study of Mus musculus with 399 samples.

Results

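C1s1, C1s2, C1ra, C1rb and C1rl are the mouse genes for the C1r and C1s proteases of complement and for the C1r-like protease. They are 5 of the 56980 genes in the count table of a study of mouse liver, gonadal fat, soleus muscle and pancreas. The genes were taken by family name, starting from C1s1, whose reads are nearly missing from TALLYHO/Jng (TH) mice in every tissue. The set was chosen by the C1s1 read levels of the 2 strains, which are therefore given as a description with no test. The close copies and the neighbours of C1s1 were examined for the same difference.

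The study sequenced poly(A) RNA from 399 libraries in 64 groups, formed by 4 tissues, both sexes, 2 strains, 2 diets and 2 ages. TH is an inbred strain that develops obesity and type 2 diabetes, and C57BL/6J (B6) is the standard laboratory strain set beside it. All mice were weaned at 4 weeks of age onto chow or a high-fat diet and killed after 1 or 16 weeks of feeding, at 5 or 20 weeks of age. Each group held 5 to 10 libraries, 1 per mouse, with 96 libraries from liver, 96 from fat, 97 from soleus and 110 from pancreas. No group carried an engineered allele or a drug. The strains differ across the whole genome, so that no strain difference below can be tied to a single locus, and the labels name no pooled animals. In 74 mice liver, fat and soleus came from the same animal.

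The classical complement pathway starts when C1q binds antibody or another target and brings with it the serine proteases C1r and C1s. C1r activates itself and then cuts C1s, and active C1s cuts C4 and C2 to build the enzyme that splits C3. Hepatocytes make most of the circulating C1r and C1s, and fibroblasts and macrophages make them in other tissues. In the mouse each of the 2 proteases has a duplicate gene, C1ra with C1rb and C1s1 with C1s2, while C1rl encodes a related protease known for cutting the haptoglobin precursor.

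The 5 genes lie together on chromosome 6 in the order C1rl, C1ra, C1s1, C1rb and C1s2, with C1rl, C1ra and C1rb on the plus strand and C1s1 and C1s2 on the minus strand. The coding sequences below are the longest open reading frames of each gene's longest GENCODE transcript, and the promoters come from RefSeq. Both are on the GRCm38.p6 reference, which is of the B6 type. The sequences thus show how the copies differ from each other and hold nothing of TH. The coding parts of C1s1 and C1s2 are equally long and identical at 95.7% of aligned bases, with 90 mismatches. Those of C1ra and C1rb are 2124 and 2121 bases long and 98.0% identical, with 42 mismatches and 3 gap bases. C1rl, with 1449 coding bases, and all pairs across families were 60.5% to 71.02% identical. A window of 60 coding bases from each pair shows the bases by which a read can be given to 1 copy. The capitals mark the bases that differ, 17 between C1s1 and C1s2 and 11 between C1ra and C1rb.
C1s1, coding bases 1484 to 1543: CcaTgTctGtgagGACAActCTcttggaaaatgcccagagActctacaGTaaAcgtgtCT
C1s2, coding bases 1484 to 1543: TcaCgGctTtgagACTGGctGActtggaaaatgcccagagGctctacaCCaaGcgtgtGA
C1ra, coding bases 1798 to 1857: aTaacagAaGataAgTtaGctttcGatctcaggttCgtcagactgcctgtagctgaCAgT
C1rb, coding bases 1795 to 1854: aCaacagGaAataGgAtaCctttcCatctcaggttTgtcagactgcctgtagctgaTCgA

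Outside such windows the copies share long runs. Of all 50-base windows of the C1ra transcript, 48.02% also occurred in C1rb, and 59.2% of those of C1rb occurred in C1ra. For C1s1 and C1s2 the shares were 24.3% and 26.9%, and no 50-base window was shared by any other pair of the 5 genes. How reads that match both copies were counted is not given in the sources used here. The split of reads between C1ra and C1rb, and between C1s1 and C1s2, is therefore uncertain, and a change of expression and a change of read assignment cannot be told apart in the values of a single copy.

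The promoters were set side by side because C1ra and C1rb moved in opposite directions between the strains. Each is the 250 bases before and the 50 bases after the start of the gene, and capitals mark the block that C1ra and C1rb share.
C1ra promoter, chr6:124512371-124512670, plus strand: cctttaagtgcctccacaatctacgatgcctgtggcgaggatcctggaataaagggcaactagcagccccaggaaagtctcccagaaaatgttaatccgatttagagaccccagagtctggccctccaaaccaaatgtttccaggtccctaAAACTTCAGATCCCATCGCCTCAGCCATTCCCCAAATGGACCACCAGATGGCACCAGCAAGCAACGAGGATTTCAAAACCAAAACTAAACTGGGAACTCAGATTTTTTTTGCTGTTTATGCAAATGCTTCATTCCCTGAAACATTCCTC
C1rb promoter, chr6:124570180-124570479, plus strand: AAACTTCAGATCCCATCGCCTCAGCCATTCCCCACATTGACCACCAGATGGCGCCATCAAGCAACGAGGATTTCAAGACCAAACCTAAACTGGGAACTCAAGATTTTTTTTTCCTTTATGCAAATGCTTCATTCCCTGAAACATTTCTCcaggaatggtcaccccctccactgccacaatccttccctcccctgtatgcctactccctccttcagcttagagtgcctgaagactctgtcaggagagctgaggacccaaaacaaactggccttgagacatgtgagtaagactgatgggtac
C1s1 promoter, chr6:124542310-124542609, minus strand: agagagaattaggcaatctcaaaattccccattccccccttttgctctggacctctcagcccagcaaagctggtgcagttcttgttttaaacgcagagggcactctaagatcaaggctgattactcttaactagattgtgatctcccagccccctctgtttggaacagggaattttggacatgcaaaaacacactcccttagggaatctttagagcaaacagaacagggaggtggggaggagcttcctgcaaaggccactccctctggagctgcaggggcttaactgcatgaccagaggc
C1s2 promoter, chr6:124636036-124636335, minus strand: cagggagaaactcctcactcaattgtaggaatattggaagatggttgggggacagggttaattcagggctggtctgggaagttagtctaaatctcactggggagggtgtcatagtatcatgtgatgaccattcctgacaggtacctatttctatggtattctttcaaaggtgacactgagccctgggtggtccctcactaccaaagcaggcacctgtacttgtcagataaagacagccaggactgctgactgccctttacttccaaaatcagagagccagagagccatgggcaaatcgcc
The shared block of C1ra and C1rb pairs 148 bases, of which 139 are identical, or 93.9%, and holds 2 gap bases besides. It ends the C1ra window, at positions 152 to 300, and opens the C1rb window, at positions 1 to 149. The C1s1 and C1s2 windows had no identical run longer than 8 bases. Searched on both strands, the octamer ATGCAAAT was found in the C1ra window at position 269 and in the C1rb window at position 118, and in 1.75% of 27025 promoters. The STAT-type motif TTCNNNGAA, which overlaps no ATGCAAAT match, was found at positions 283 and 132 of the same windows, and in 8.47% of all promoters. TATAAA, held by 14.2% of promoters, was found in none of the 5. A loose form of the interferon-stimulated response element, held by 3.49%, was found in none of them either. The C1rl window, at chr6:124492863-124493162 on the plus strand, held none of the 4 motifs.

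Total counts per library ranged from 6599595 to 17542373 in liver, 2949692 to 22172450 in fat, 4169650 to 22050846 in soleus and 1173484 to 11731391 in pancreas. In the pancreas a median of 64.6% of reads fell on the 10 most abundant genes, so low genes rested on few reads there. Hepatocyte, adipocyte, slow myofibre and acinar markers were abundant in the tissue each stands for. On chow at 20 weeks the summed level of the 5 hepatocyte markers in liver lay between 25770 and 46719 CPM, which are counts scaled to the size of the library. The 4 adipocyte markers in fat summed to between 2153 and 13949 CPM, the 3 slow myofibre markers in soleus to between 11979 and 27849 CPM, and the 4 acinar markers in pancreas to between 44138 and 133211 CPM. The summed level of 5 epididymal genes reached 7425 CPM in B6 fat and 7282 CPM in TH fat over all diets and ages, with medians of 2.39 and 1.40 CPM. There were 10 libraries that stood apart from their group (6 in fat, 2 in soleus and 1 each in liver and pancreas), and results that change without them are given both ways. Levels below are CPM with library factors from the trimmed mean of M-values, and differences between groups are log2 fold changes ± SE.

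C1s1, the main C1s gene of B6 mice, had a median of 502 CPM in B6 liver, with a range of 350 to 676 CPM over 48 libraries. In TH liver the range was 0 to 6.57 CPM with a median of 0.632 CPM. B6 fat held 117 to 519 CPM with a median of 307 CPM, and TH fat held 0.296 to 2.53 CPM with a median of 1.24 CPM. No TH library came near any B6 library in either tissue. In soleus the B6 range was 17.2 to 51.8 CPM with a median of 37.6 CPM, against 0 to 1.08 CPM with a median of 0.0863 CPM in TH. In pancreas B6 ranged from 4.81 to 15.9 CPM with a median of 11.1 CPM, and TH from 0 to 0.652 CPM with a median of 0. The groups did not overlap in any of the 4 tissues.

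**Figure D1:**
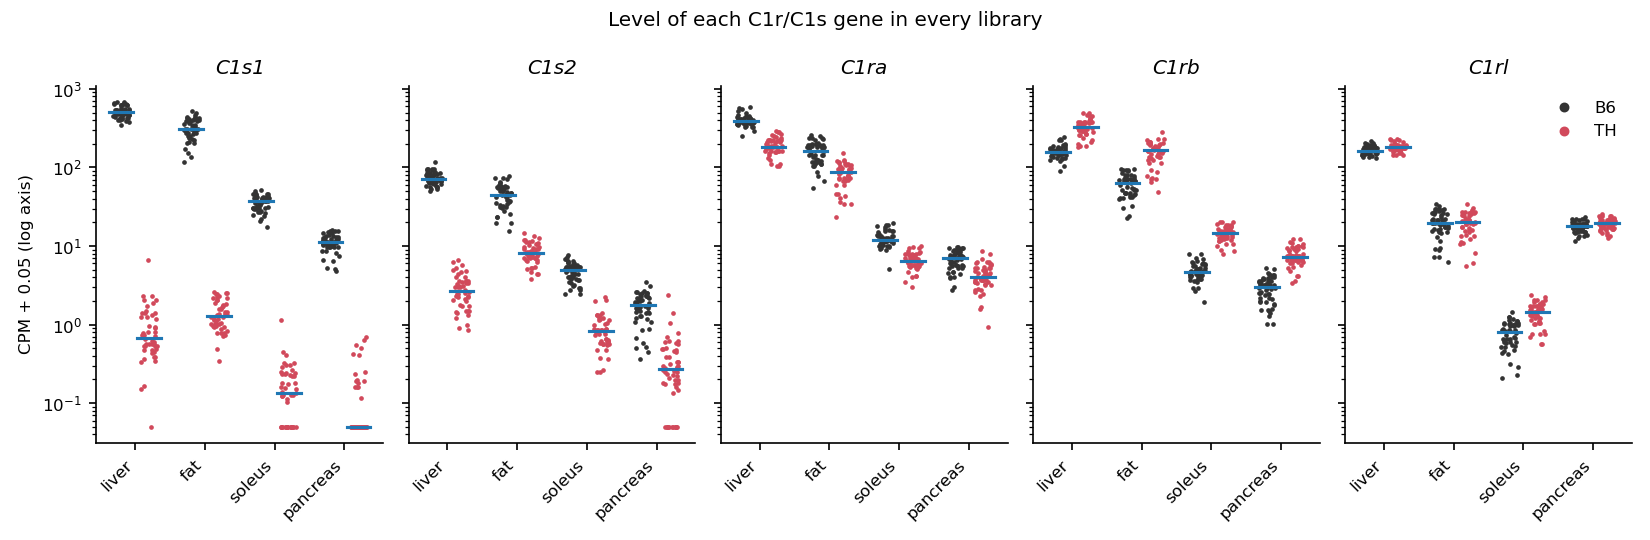
Level of each of the 5 genes in every library, in CPM plus 0.05 on a log axis, by tissue and strain; points are libraries and blue lines are medians. C1s1 separates the strains in all 4 tissues, C1s2 in liver, fat and soleus, while C1ra and C1rb shift in opposite directions and C1rl overlaps.

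The remaining C1s1 signal in TH rested on few reads. All 48 TH liver libraries together held 444 C1s1 reads, the 48 of fat 559, the 48 of soleus 68 and the 56 of pancreas 22. The count was 0 in 1 of 48 TH liver libraries, 16 of 48 soleus libraries and 40 of 56 pancreas libraries. On chow at 20 weeks the mean C1s1 level was 438-fold higher in B6 than in TH liver, from 58514 reads in B6 and 123 in TH. The corresponding ratios were 261-fold in fat, 271-fold in soleus and 182-fold in pancreas, where the TH groups held 129, 17 and 5 reads. A single male TH liver on chow held 43 of the 123 reads at 6.57 CPM, and without it the liver ratio was 806-fold. Without the highest TH library the ratios were 280-fold in fat, 350-fold in soleus and 293-fold in pancreas, the last from 4 reads. In bulk tissue, fewer cells of a type and less RNA per cell cannot be told apart, and with near-identical copies present neither can reads of C1s2 that were counted as C1s1. Reads of both strains were handled on the same mouse reference. How well TH reads match it at these genes was not tested, so missing transcripts and unmatched TH reads cannot be told apart either.

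By condition, the lowest and highest of the 8 B6 group means were 425 and 643 CPM in liver, 205 and 387 CPM in fat, 27.6 and 44.9 CPM in soleus and 7.67 and 13.0 CPM in pancreas. The 8 TH group means lay between 0.588 and 1.46 CPM in liver and between 1.09 and 1.82 CPM in fat. In soleus they lay between 0.0679 and 0.264 CPM, and in pancreas between 0 and 0.289 CPM. Neither sex, diet nor age brought any TH group within reach of B6.

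C1s2, the second C1s gene, was also lower in TH, but not to the same depth in every tissue. Its B6 liver levels ran from 49.97 to 118 CPM with a median of 71.4 CPM, and its TH liver levels from 0.812 to 6.61 CPM with a median of 2.61 CPM. In fat the B6 range was 15.3 to 77.2 CPM with a median of 44.7 CPM, and the TH range 3.71 to 14.7 CPM with a median of 8.13 CPM. In soleus B6 held 2.38 to 7.70 CPM with a median of 4.90 CPM and TH 0.196 to 2.17 CPM with a median of 0.773 CPM. The strains did not overlap in liver, fat or soleus. In pancreas they did, with 0.317 to 3.39 CPM and a median of 1.70 CPM in B6 against 0 to 2.32 CPM and a median of 0.218 CPM in TH, and 51 of 56 TH libraries had 3 reads or fewer.

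On chow at 20 weeks C1s2 was 42.6-fold lower in TH liver, a log2 difference of -5.41 ± 0.11 with an adjusted p of 1.3e-58. It was 5.80-fold lower in fat (-2.54 ± 0.19, adjusted p = 9.1e-20) and 4.27-fold lower in soleus (-2.09 ± 0.19, adjusted p = 3.4e-16). C1s2 passed the filter on low counts in pancreas through its B6 libraries, with a median of 11 reads in B6 and 1 in TH. The difference there, -2.51 ± 0.31 or 5.69-fold with an adjusted p of 2.1e-11, is therefore given as a description. Over the 4 combinations of diet and age the C1s2 difference ranged from -4.43 to -5.41 in liver, from -2.22 to -2.54 in fat, from -2.09 to -3.18 in soleus and from -2.04 to -2.99 in pancreas. All 16 of these comparisons were called at an adjusted p below 0.05, the 4 in pancreas with the limit just named. A further limit holds for every tissue. The mean share of C1s2 in the B6 reads of the C1s pair stayed between 11.6% (soleus) and 13.1% (pancreas). How many of these were C1s1 reads counted as C1s2 was not tested. The C1s2 differences may thus partly repeat the C1s1 difference by which the set was chosen, and their p-values may not be independent of that choice.

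The size of the C1s2 difference was compared between tissues of the same mice, with strain labels permuted within groups of the same sex, diet and age on log2(CPM + 0.5). The strain difference was 2.31 log2 units deeper in liver than in fat (34 TH and 39 B6 mice) and 2.56 deeper in liver than in soleus (44 and 44 mice). Both p-values were 1e-05, the smallest that the 100000 permutations can give, or 3e-05 after adjustment over 12 relations. Between fat and soleus no order held. The difference of -0.45 (adjusted permutation p = 0.0062) was -0.10 with 0.1 in place of 0.5 CPM added (adjusted permutation p = 0.62), and the mean in TH was 0.184 times that in B6 in fat and 0.174 times in soleus. Mean C1s2 in B6 was higher in liver than in fat, and in TH it was the other way round, with a median of 2.61 CPM in liver and 8.13 CPM in fat. C1s1 reads counted as C1s2 could also enter these tissue comparisons, and their part was not tested.

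C1ra and C1rb, the duplicated C1r genes, changed in opposite directions. C1ra, the more abundant copy in B6, ran from 250.8 to 584 CPM in B6 liver with a median of 392 CPM, and from 102.99 to 287 CPM in TH liver with a median of 184 CPM. C1rb ran from 89.7 to 244.8 CPM in B6 liver with a median of 157 CPM, and from 180 to 499 CPM in TH liver with a median of 324 CPM. The lowest B6 and the highest TH libraries overlapped for C1ra, and the highest B6 and lowest TH libraries for C1rb. In the reads as they were assigned, C1ra thus led in B6 liver and C1rb in TH liver.

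In fat, C1ra had a median of 163 CPM in B6 (54.0 to 260 CPM) and 87.98 CPM in TH (23.4 to 151 CPM). C1rb in fat had a median of 63.1 CPM in B6 (22.4 to 96.1 CPM) and 165 CPM in TH (48.1 to 287 CPM). In soleus, the C1ra medians were 11.8 CPM in B6 (5.06 to 19.7 CPM) and 6.31 CPM in TH (2.98 to 10.0 CPM). The C1rb medians there were 4.58 CPM in B6 (1.86 to 7.95 CPM) and 14.6 CPM in TH (7.86 to 20.2 CPM). In pancreas, C1ra had a median of 7.06 CPM in B6 (2.68 to 9.60 CPM) and 4.04 CPM in TH (0.868 to 8.70 CPM). C1rb had 2.99 CPM in B6 (0.955 to 5.15 CPM) and 7.27 CPM in TH (3.36 to 12.4 CPM). The order of the 2 copies in assigned reads thus turned over between the strains in every tissue, although single libraries of the strains overlapped for each gene. A change of expression and a change of read assignment cannot be told apart here.

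On chow at 20 weeks C1ra was lower in TH by -1.36 ± 0.07 in liver (adjusted p = 1.1e-29), -0.88 ± 0.16 in fat (8.6e-06), -0.89 ± 0.14 in soleus (1.5e-07) and -0.58 ± 0.14 in pancreas (0.00046). C1rb was higher in TH by 0.77 ± 0.08 in liver (adjusted p = 2.1e-14), 1.43 ± 0.15 in fat (1.5e-12), 1.60 ± 0.14 in soleus (3.5e-16) and 1.38 ± 0.14 in pancreas (3.9e-15). C1ra was called lower and C1rb called higher in all 16 strain comparisons. In the same mice the C1rb difference was smaller in liver than in fat by 0.36 log2 units (permutation p = 0.00116, adjusted 0.0023) and smaller than in soleus by 0.48 (adjusted p = 3e-05). For C1ra the tissue differences of -0.17 between liver and fat, -0.16 between liver and soleus and -0.00 between fat and soleus did not pass, with adjusted permutation p-values of 0.18, 0.086 and 1.0.

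**Figure D2:**
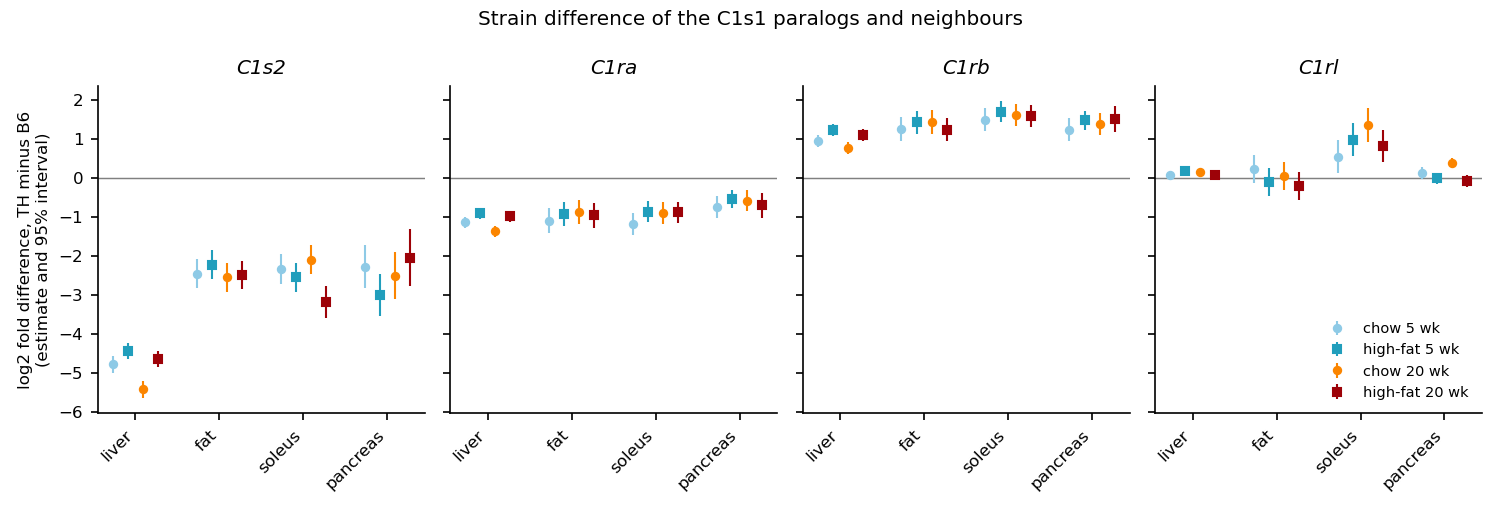
Strain difference of C1s2, C1ra, C1rb and C1rl as log2 TH over B6 with 95% intervals, in 4 tissues under 4 combinations of diet and age. C1s2 lies near -5 in liver and between -2 and -3.2 elsewhere, C1ra lies below and C1rb above 0 throughout, and C1rl lies near 0 except in soleus.

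The share of C1rb in the reads of the C1r pair separated the strains more cleanly than either gene. In liver C1rb made up 28.6% ± 1.37 (SD, n = 48) of C1ra plus C1rb reads in B6 and 63.3% ± 0.946 (n = 48) in TH. The shares were 27.8% ± 1.26 and 65.4% ± 1.37 in fat, and 27.2% ± 2.46 and 68.997% ± 2.54 in soleus. In pancreas, where counts were low, they were 29.4% ± 4.96 and 64.4% ± 5.26. The highest B6 liver was at 31.3% and the lowest TH liver at 61.7%, and no library of the strains overlapped in any tissue. Over the 8 groups of sex, diet and age the mean share ran from 27.7% to 29.5% in B6 liver and from 62.8% to 63.97% in TH liver. It ran from 27.1% to 28.6% in B6 fat and from 64.5% to 66.6% in TH fat. The ranges were wider in soleus, at 25.3% to 28.4% in B6 and 66.3% to 71.2% in TH, and in pancreas, at 26.4% to 32.8% and 61.2% to 68.4%. These ranges were not tested.

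The sum of C1ra and C1rb does not depend on which copy a shared read is given to. It does depend on any shared reads that were discarded and on any TH reads that did not match the reference. It overlapped between the strains in all 4 tissues. The mean sum in TH was 0.926 times that in B6 in liver, 1.09 times in fat, 1.21 times in soleus and 1.21 times in pancreas. The sum of C1s1 and C1s2 in TH was 0.006 times that in B6 in liver, 0.026 times in fat, 0.023 times in soleus and 0.030 times in pancreas. These ratios pool both sexes, diets and ages, and the sums were not tested. On chow at 20 weeks the mean sum of C1ra and C1rb was 401.8 CPM in TH liver and 518.6 CPM in B6 liver. In fat, soleus and pancreas its mean was higher in TH under that condition. Pooled over conditions, the C1r sum in TH thus lay between 0.926 and 1.21 times that in B6, while C1s reads were nearly all missing from TH.

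**Figure D3:**
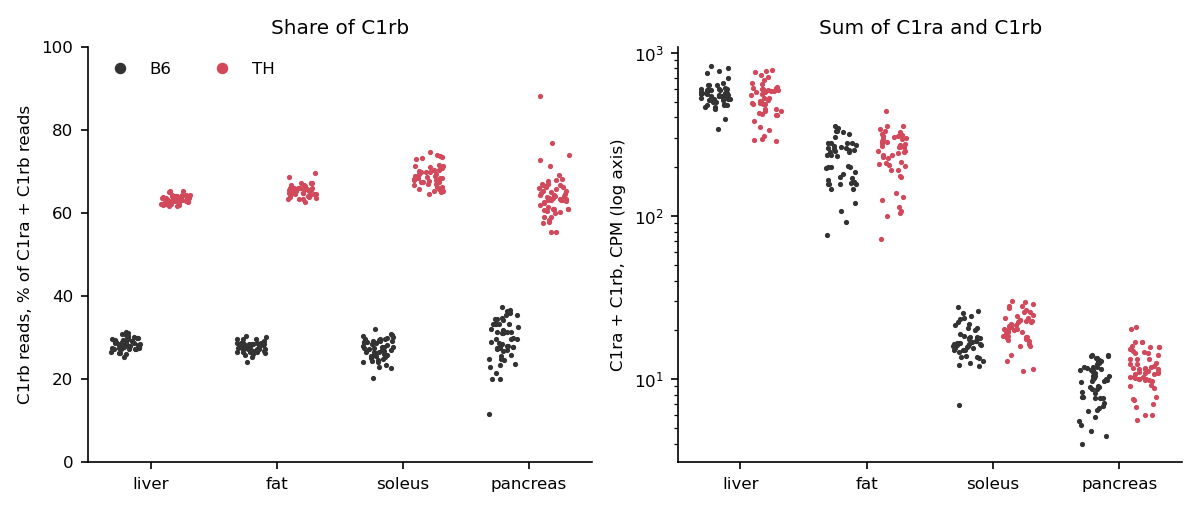
C1rb as a percentage of C1ra plus C1rb reads (left) and the sum of both in CPM on a log axis (right), by tissue and strain; points are libraries. Shares stay near 28% in B6 and near 65% in TH with no overlap, and the sums overlap.

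C1rl, the C1r-like protease, differed little. Its median in liver was 161 CPM in B6 (130 to 215.3 CPM) and 180 CPM in TH (144 to 229 CPM). The medians were 19.7 CPM and 19.9 CPM in fat and 17.9 CPM and 19.5 CPM in pancreas, with wide overlap. In soleus C1rl was scarce, with a median of 0.747 CPM in B6 (0.159 to 1.37 CPM) and 1.40 CPM in TH (0.512 to 2.36 CPM). C1rl was called higher in TH in 6 of 16 comparisons and lower in none. On chow at 20 weeks these were liver (0.17 ± 0.05, adjusted p = 0.0021), soleus (1.35 ± 0.22, adjusted p = 5.3e-07) and pancreas (0.38 ± 0.07, adjusted p = 2.7e-06). The others were liver on the high-fat diet at 5 weeks (0.18) and soleus on the high-fat diet at 5 weeks (0.99) and 20 weeks (0.82).

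The C1rl difference was larger in soleus than in liver by 0.47 log2 units (adjusted permutation p = 3e-05) and than in fat by 0.63 (adjusted permutation p = 9.6e-05). In soleus on chow at 20 weeks 4 of 6 fibroblast markers were higher in TH, with a summed range of 300 to 1074 CPM in B6 and 514 to 1180 CPM in TH. All 4 adipocyte markers were higher there too, with 5.3 to 48.3 CPM summed in B6 and 19.7 to 93.8 CPM in TH. Their part in the C1rl result was not tested.

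Across C1s2, C1ra, C1rb and C1rl, 54 of 64 strain tests were called, 22 higher and 32 lower in TH, among them the 4 of C1s2 in pancreas. These counts stand against a background in which many genes differed between the strains, counted here and below in either direction. In liver 42.2% of all genes tested were called on chow at 20 weeks, 39.6% on the high-fat diet at 20 weeks, 38.8% on chow at 5 weeks and 43.4% on the high-fat diet at 5 weeks. In the same order the shares were 25.6%, 26.1%, 21.3% and 23% in fat, 48.8%, 51.4%, 16.6% and 19.4% in soleus, and 27.1%, 18.7%, 26.0% and 25.4% in pancreas.

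Among cell type markers on chow at 20 weeks, 4 of 5 macrophage markers were lower in TH liver, with a summed range of 84.4 to 271 CPM in B6 and 30.4 to 160 CPM in TH. In fat 5 of 5 were higher in TH, with 166 to 1279 CPM summed in B6 and 766 to 3166 CPM in TH. None of 6 fibroblast markers was called in liver, 1 was higher in fat and 1 was lower in pancreas. The part of these markers in the results was not tested.

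Per length, in FPKM (fragments scaled to gene length and library size) as the authors deposited them, C1s1 led the family in B6 liver with a median of 138 FPKM. C1ra followed with 113 FPKM, C1rb with 55.2 FPKM, C1rl with 45.4 FPKM and C1s2 with 22.9 FPKM. In TH liver the order was C1rb at 111 FPKM, C1ra at 51.9 FPKM, C1rl at 49.9 FPKM, C1s2 at 0.809 FPKM and C1s1 at 0.171 FPKM. The C1ra and C1rl ranges overlapped in TH liver, at 28.4 to 80.5 and 39.6 to 63.6 FPKM. In B6 fat the medians ran from C1s1 at 49.7 FPKM through C1ra at 27.6, C1rb at 13.1 and C1s2 at 8.49 FPKM to C1rl at 3.29 FPKM. In TH fat C1rb led at 35.3 FPKM, with C1ra at 15.3, C1rl at 3.38, C1s2 at 1.56 and C1s1 at 0.203 FPKM.

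In pancreas C1rl led in both strains, with medians of 15.6 FPKM in B6 and 16.7 FPKM in TH. There C1s1 came next in B6 at 9.31 FPKM, before C1ra at 6.19, C1rb at 3.22 and C1s2 at 1.71 FPKM. In TH pancreas C1rb followed C1rl at 7.77 FPKM, with C1ra at 3.56, C1s2 at 0.211 and C1s1 at 0 FPKM. In B6 soleus C1s1 had a median of 9.09 FPKM, C1ra 3.05, C1rb 1.46, C1s2 1.37 and C1rl 0.183 FPKM, of which C1rb and C1s2 overlapped widely. In TH soleus the medians were 4.46 FPKM for C1rb, 1.61 for C1ra, 0.351 for C1rl, 0.218 for C1s2 and 0.0204 FPKM for C1s1. A C1r gene or C1rl thus stood at the top in every TH tissue, where C1s1 led in B6 in all tissues but pancreas.

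The genes around the cluster were examined to see whether the C1s difference extended along the chromosome. Of 64 genes annotated within 500 kb of the cluster, 62 had a row in the count table. In liver 31 of them could be tested and 13 were called on chow at 20 weeks, 6 higher and 7 lower in TH. In fat 17 of 35 were called (7 higher, 10 lower), in soleus 14 of 30 (7 higher, 7 lower) and in pancreas 8 of 24 (6 higher, 2 lower). Set against 42.2%, 25.6%, 48.8% and 27.1% of all genes, the neighbours had medians of -0.05, -0.03, -0.12 and 0.12, beside -0.00, -0.04, 0.03 and -0.00 for all genes.

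The nearest tested genes showed no difference of the size seen for C1s1 in all tissues. Clstn3, a calsyntenin and the closest on the C1rl side, was lower in TH liver (-1.90 ± 0.18) and fat (-0.79 ± 0.26), higher in soleus (0.42 ± 0.17) and at -0.28 ± 0.26 in pancreas, where it was not called. Pex5, a peroxisomal import receptor, was called lower in liver (-0.09), fat (-0.24) and soleus (-0.28). Cd163, a macrophage scavenger receptor, was lower in liver (-0.89) and pancreas (-0.58) and higher in soleus (0.69). On the C1s2 side, Lpcat3, a phospholipid-remodelling enzyme, was lower in liver (-0.29) and higher in pancreas (0.42). Emg1, a ribosome biogenesis factor, was lower in soleus alone (-0.30), and Phb2, a prohibitin of mitochondria, was lower in fat (-0.30) and soleus (-0.56).

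Of the genes called in every tissue in which they were tested, Pianp was the only one tested in all 4. It was higher in TH by 2.28 ± 0.19 in liver, 2.53 ± 0.37 in pancreas, 2.99 ± 0.19 in fat and 3.498 ± 0.19 in soleus. Pianp was low in liver and pancreas, with average levels of 0.85 and 0.11 log2 CPM, so the differences there rest on few reads. Whether it passed the filter on low counts there through its TH libraries was not examined. Gm18840, an annotated pseudogene that lies between C1s1 and C1rb, was lower by -3.35 ± 0.17 in liver and -2.26 ± 0.26 in fat and too low to test elsewhere. Its reads could also be shared with other copies. Eno2, the neuronal enolase, was higher in fat (0.45) and soleus (1.97), the T-cell coreceptor Cd4 was higher in liver (0.90) and fat (1.70), and the receptor Lpar5 was higher in fat (1.15).

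**Figure D4:**
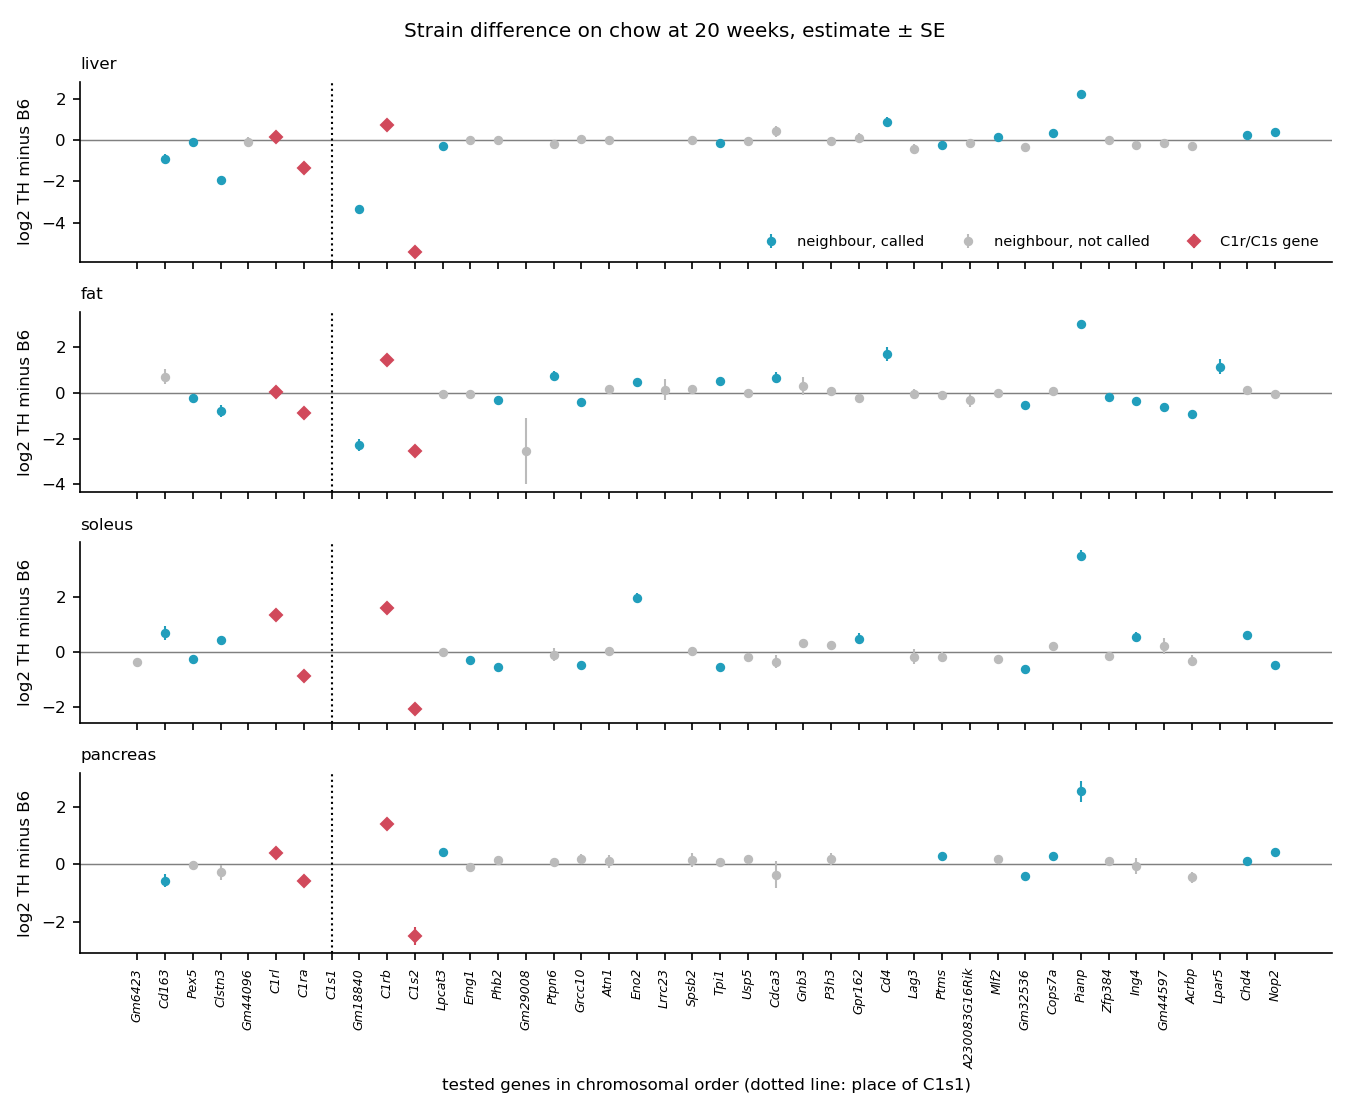
Strain difference, log2 TH over B6 ± SE, of genes within 500 kb of the C1r and C1s cluster in gene order, on chow at 20 weeks in 4 tissues; the dotted line marks the place of C1s1, which is not plotted as a test. C1s2, Gm18840, C1ra and C1rb depart from 0 beside it, Pianp lies above 2 in each tissue, and most neighbours lie near 0.

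The members' responses to the high-fat diet were mostly seen in liver. Of 72 diet tests over all members, C1s1 in B6 only, 13 were called, 11 of them higher on the high-fat diet and in liver. In TH liver at 20 weeks C1s2, C1ra and C1rb rose, 3 of 4 members tested, where 26.1% of all genes were called. C1s2 in TH females went from 0.81 to 1.40 CPM with a median of 1.23 CPM on chow to 1.66 to 2.95 CPM with a median of 2.33 CPM on the high-fat diet. In TH males it went from 1.42 to 3.06 CPM with a median of 2.203 CPM to 3.49 to 6.61 CPM with a median of 4.59 CPM. The diet groups did not overlap in either sex, and the rise over both was 2.07-fold, or 1.05 ± 0.14 (adjusted p = 2.6e-09).

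C1ra rose in the same TH livers from a median of 111 CPM (102.99 to 160 CPM) to 183 CPM (153 to 222 CPM) in females. In males it went from 169 CPM (156 to 198.4 CPM) to 216.2 CPM (190 to 253 CPM). Its change was 0.48 ± 0.07 (adjusted p = 1.2e-07). C1rb rose by 0.44 ± 0.08 (adjusted p = 4.1e-06), from medians of 193 to 304 CPM in females and of 300 to 356 CPM in males. At 5 weeks, after 1 week of diet, all 4 members tested rose in TH liver, where 9.66% of all genes were called. The changes were 0.62 ± 0.13 for C1s2 (adjusted p = 0.00026), 0.43 ± 0.07 for C1ra, 0.45 ± 0.08 for C1rb and 0.18 ± 0.05 for C1rl.

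In B6 liver at 20 weeks C1s2 (0.28 ± 0.08, adjusted p = 0.008) and C1rl (0.14 ± 0.05, adjusted p = 0.021) rose, 2 of 5 members, with 23.4% of all genes called. At 5 weeks C1s2 (0.28 ± 0.08, adjusted p = 0.0073) and C1ra (0.20 ± 0.07, adjusted p = 0.033) rose, 2 of 5 members, with 19.9% of all genes called. Without the male B6 liver library on the high-fat diet that stood apart, all 5 were called higher, with C1s1 at 0.39 (adjusted p = 0.037), C1s2 at 0.34, C1ra at 0.27, C1rb at 0.25 (adjusted p = 0.0015) and C1rl at 0.12 (adjusted p = 0.027). The 19.9% belongs to the fit with all libraries. The share of all genes called without that library is not given here, so the 5 calls are not set against a background. C1s1 in B6 males went from 471 to 555 CPM on chow to 620 to 676 CPM on the high-fat diet at 20 weeks, with no overlap. B6 females overlapped, with 378 to 482 CPM and 398 to 533 CPM. The change of 0.24 ± 0.14 over both sexes was not called (adjusted p = 0.24). In a fit of only the B6 groups compared, which leaves out TH and the B6 groups of the other age, the C1s1 change was 0.21 with an adjusted p of 0.0040. The corresponding values at 5 weeks were 0.33 ± 0.14 (adjusted p = 0.094) and 0.34 (adjusted p = 0.0016).

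The diet response differed between the strains in liver at 20 weeks for C1s2, larger in TH by 0.77 ± 0.16 (adjusted p = 0.0012), and for C1ra, larger by 0.38 ± 0.10 (adjusted p = 0.016). These are 2 of 4 members, where 3.89% of all genes were called. For C1rb the difference of 0.33 ± 0.11 was not called (adjusted p = 0.065), and without the libraries that stood apart it was (adjusted p = 0.012). At 5 weeks none of the 4 was called, with differences of 0.11 to 0.34, 1.35% of all genes called.

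Outside liver 2 diet tests were called. In TH soleus at 20 weeks C1s2 fell by 0.82 ± 0.22 log2 units (adjusted p = 0.0013), and its response differed from that in B6 by -1.09 ± 0.28 (adjusted p = 0.00092). Its TH medians went from 0.962 CPM (0.521 to 1.26 CPM) to 0.653 CPM (0.330 to 0.834 CPM) in females and from 0.782 CPM (0.568 to 1.28 CPM) to 0.457 CPM (0.214 to 0.524 CPM) in males. The male groups did not overlap and the female groups did. In that comparison 67.7% of all genes were called, and 63.4% for the difference in response, against 0.114% for diet in B6 soleus, so 1 of 4 members lies below the background.

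In TH pancreas at 20 weeks C1rl fell by 0.29 ± 0.07 (adjusted p = 0.0064), with 5.74% of all genes called. Its medians went from 21.02 to 17.7 CPM in females and from 21.4 to 18.1 CPM in males, with overlapping ranges. The response differed from that in B6 by -0.46 ± 0.10 (adjusted p = 0.010), with 1.33% of all genes called. In fat none of 18 diet tests was called by edgeR and none had an unadjusted p below 0.05. The share of all genes called in fat was 2.34% for B6 and 0.152% for TH at 20 weeks, and 2.88% and 0.0507% at 5 weeks. The difference in response between the strains was called for 0.152% of genes at 20 weeks and 1.73% at 5 weeks, none of them a member, and no member had an unadjusted p below 0.05 there. At 5 weeks no member responded by edgeR in soleus, where 0.982% of all genes were called in B6, 0.702% in TH and 0.137% for the difference, or in pancreas, where the shares were 1.98%, 3.25% and 0.0150%. None did in B6 pancreas at 20 weeks either (1.58%). Of the member tests in these 7 comparisons and in B6 soleus at 20 weeks, 7 had an unadjusted p below 0.05.

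**Figure D5:**
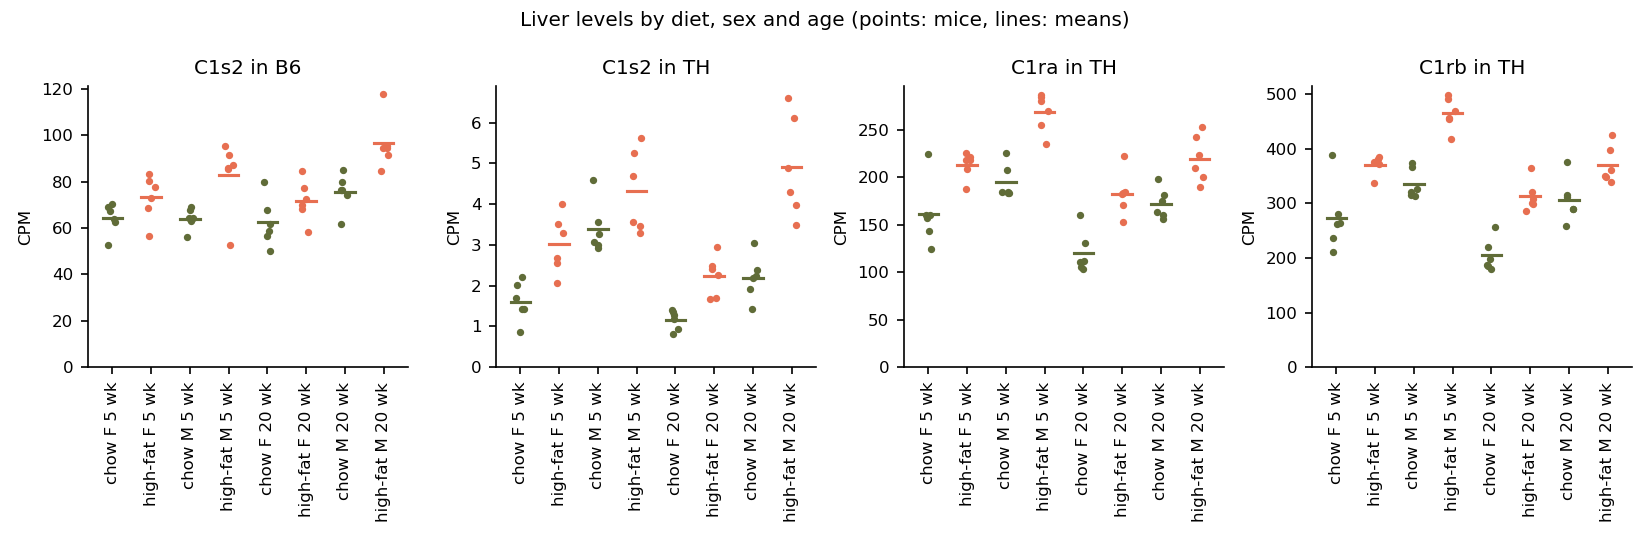
Levels of C1s2 in B6 liver and of C1s2, C1ra and C1rb in TH liver, in CPM, by sex, age and diet; points are mice and lines are means, with chow in green and the high-fat diet in orange. In TH the means of the high-fat groups lie above those of the chow groups of the same sex and age, and for C1s2 at 20 weeks the points do not overlap.

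Between the sexes on chow at 20 weeks, 8 of 36 tests were called, 7 of them in liver and higher in males. In TH liver all 4 members tested were higher in males, where 22.1% of all genes were called. C1s2 was higher by 0.89 ± 0.22 (adjusted p = 0.0017), C1rb by 0.58 ± 0.11 (2.1e-05), C1ra by 0.52 ± 0.10 (4.7e-05) and C1rl by 0.20 ± 0.06 (0.015). The lowest male C1s2 value, 1.42 CPM, lay above the highest female value, 1.40 CPM. In B6 liver 3 of 5 members were called with 38.4% of all genes, namely C1rb (0.36 ± 0.11, adjusted p = 0.0066), C1ra (0.26 ± 0.10, adjusted p = 0.031) and C1s2 (0.28 ± 0.12, adjusted p = 0.049). C1s1 was at 0.28 ± 0.20 in B6 liver (adjusted p = 0.28), and at 0.30 with an adjusted p of 0.010 in a fit of the 2 groups alone.

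In B6 pancreas C1s1 was lower in males by -0.54 ± 0.14 (adjusted p = 0.020), with 1.60% of all genes called. Males held 6.49 to 11.2 CPM and females 9.72 to 15.5 CPM, and the groups overlapped. With the replicate number as a block the adjusted p of this difference was 0.12. No sex difference of the 4 other members differed between the strains by edgeR, with 0 of 16 tests called and 4 with an unadjusted p below 0.05. Without the libraries that stood apart it was called in fat for C1ra (-0.89, adjusted p = 0.048) and C1rb (-0.93, adjusted p = 0.035). The shares of all genes called for that difference were 4.88% in liver, 1.48% in fat, 1.45% in pancreas and 0.0742% in soleus. Within a strain no member was called between the sexes in fat (12.9% of all genes called in B6 and 6.40% in TH), in soleus (1.02% and 0.428%) or in TH pancreas (0.546%), where 2 tests, both in TH fat, had an unadjusted p below 0.05.

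Between 5 and 20 weeks on chow, 9 of 36 tests were called. In TH liver C1s2 (-0.54 ± 0.15, adjusted p = 0.0086), C1ra (-0.30 ± 0.07, adjusted p = 0.0022) and C1rb (-0.28 ± 0.08, adjusted p = 0.012) were lower at 20 weeks, 3 of 4 members where 9.16% of all genes were called. C1s2 medians in TH males went from 3.17 CPM (2.93 to 4.60 CPM) to 2.203 CPM (1.42 to 3.06 CPM) and in TH females from 1.56 CPM (0.86 to 2.22 CPM) to 1.23 CPM. Both pairs overlapped. In B6 liver C1rl alone of 5 was lower (-0.15 ± 0.05, adjusted p = 0.012), with 15.6% of all genes called. The age difference of C1s2 in TH minus that in B6 was -0.64 ± 0.17 (adjusted p = 0.027), 1 of 4 members, with 1.44% of all genes called.

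In TH fat C1ra (0.60 ± 0.16, adjusted p = 0.0053) and C1rb (0.53 ± 0.15, adjusted p = 0.010) were higher at 20 weeks, 2 of 4 members with 13.8% of all genes called. In TH males C1ra went from a median of 39.8 CPM (23.4 to 72.1 CPM) to 84.3 CPM (66.9 to 103.5 CPM). Over both sexes its TH median went from 72.7 CPM to 100.2 CPM. The ranges overlapped there, at 23.4 to 110.5 CPM and 66.9 to 151.0 CPM. The age change was not tested in each sex apart, so the share of the males in it is open. A male TH fat library on chow at 5 weeks was among those that stood apart. The part of the epididymal genes in the fat results was not tested. In B6 fat C1s1 was at 0.32 ± 0.16 (adjusted p = 0.17), and at 0.38 with an adjusted p of 0.035 without the libraries that stood apart. Without them C1ra (0.44, adjusted p = 0.019) and C1rb (0.40, adjusted p = 0.029) were also called higher at 20 weeks in B6 fat. In B6 soleus C1s1 (-0.49 ± 0.17, adjusted p = 0.013), C1s2 (-0.48 ± 0.17, adjusted p = 0.017) and C1rl (-0.62 ± 0.23, adjusted p = 0.024) were lower at 20 weeks. These are 3 of 5 members, where 41.2% of all genes were called. B6 soleus C1s1 went from 34.9 to 45.6 CPM to 20.6 to 30.8 CPM in females, with no overlap, and from 38.4 to 51.8 CPM to 24.1 to 43.9 CPM in males. With all libraries no member was called with age in B6 fat (14% of all genes called), TH soleus (38.4%), B6 pancreas (14.6%) or TH pancreas (27.5%), where 4 of 18 tests had an unadjusted p below 0.05, 3 of them in B6 fat. The difference in age response was called for no member in fat, soleus or pancreas either, beside 0.959%, 3.07% and 4.53% of all genes, and 2 of those 12 tests had an unadjusted p below 0.05.

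The rest of the complement system was counted over 47 genes fixed as lists, none of them a member. On chow at 20 weeks 12 of 46 tested were higher and 19 lower in TH liver, with a median of -0.07. In fat 11 were higher and 6 lower of 37 (median 0.31), in soleus 9 and 7 of 31 (0.06) and in pancreas 5 and 5 of 20 (-0.00). Over all genes the medians were -0.00, -0.04, 0.03 and -0.00, and 42.2%, 25.6%, 48.8% and 27.1% were called. Among the 6 other genes of classical activation, the substrates and partners of C1r and C1s, 2 were higher and 3 lower in liver, 1 and 1 in fat, 2 and 3 in soleus, and 2 and 1 in pancreas.

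The C1q chains, which form the recognition part of C1, were all lower in TH liver, with C1qa at -0.83 ± 0.14, C1qb at -0.90 ± 0.15 and C1qc at -1.002 ± 0.16. They were also lower in soleus (-0.52, -0.82 and -0.54), and none was called in fat. In pancreas C1qa was higher by 4.23 ± 0.15, while C1qb was lower by -0.73 ± 0.18 and C1qc at -0.44 was not called. C4a, a close copy of the C1s substrate gene C4b, was higher in all tissues, by 1.16 ± 0.21 in soleus, 1.04 ± 0.11 in liver, 1.01 ± 0.26 in pancreas and 0.81 ± 0.24 in fat. C4b itself was called in soleus alone (0.79 ± 0.26). Reads that C4a and C4b may share were not examined, so the split between these copies is uncertain too. C2, the other substrate, was higher in liver (0.40 ± 0.07) and lower in fat (-0.49 ± 0.18). Serping1, the inhibitor of C1r and C1s, was higher in fat (0.93 ± 0.17) and was not called in liver (0.13 ± 0.07), soleus (0.09 ± 0.15) or pancreas (-0.03 ± 0.11).

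Of the terminal genes with C3 and C5, 6 of 8 were higher and 1 lower in TH liver, led by C6 (1.82 ± 0.17) and C7 (0.80 ± 0.19). C7 was also the most raised in soleus (1.86 ± 0.26). The falls in liver included those of Cd59b, a membrane inhibitor (-1.81 ± 0.20), and Itgax, a complement receptor chain (-1.78 ± 0.36). Of the receptors, 5 of 8 were lower in liver and 5 of 7 higher in fat, with Itgax (2.33 ± 0.35), Itgb2 (2.04 ± 0.31) and Vsig4 (1.32 ± 0.35) the highest there. These are genes of myeloid cells, whose macrophage markers moved the same way in both tissues, and their part was not tested. The falls in fat were led by C5ar2 (-2.24 ± 0.35), Cfd (-1.46 ± 0.27) and Masp1 (-1.33 ± 0.29).

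In soleus Cd59b (-1.93 ± 0.23), C5ar1 (-1.02 ± 0.31) and C1qb fell furthest. In pancreas the falls were led by Itgb2 (-2.34 ± 0.20), Cfd (-1.16 ± 0.37) and C1qb, and after C1qa the highest was Cd59a (1.61 ± 0.11). None of the differences called in these lists was as large as the -5.41 of C1s2 in liver.

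Over the 32 B6 groups the mean level of C1s1 followed that of C1s2 most closely among 13844 genes compared, with a Pearson r of 0.998 on the log2 CPM scale. Igfbp4, Fam107b and Rarres2 were among the next, with r of 0.993 to 0.995. C1ra and C1rb were each the other's closest gene, at r = 0.999, followed for both by Rbp4, Galm and Erlin1. Apoe came next for C1ra and Selenoi for C1rb. The genes closest to C1s2 after C1s1 included Fam107b, Daam1 and Igfbp4. C1rl stood apart from its family, closest to Cxadr (0.993), Mal2, Gprin3, Shtn1 and Cgn. These values describe group means that share their tissues, and most of the spread lies between the 4 tissues. Reads that match both copies of a pair can also raise the r within that pair, and their part was not tested.

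Over all 64 groups, after the mean of each tissue was subtracted, Agtrap (0.970), Pop4 (0.963), Hist1h2bf (0.963), Ppp1r3e (0.960) and C1s2 (0.959) followed C1s1 most closely. This ranking describes mainly the strain step on which C1s1 was chosen.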

How the data were processed

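RNA was poly(A)-selected and made into stranded TruSeq libraries from samples with an RNA integrity number above 8, per the labels' protocols. Per the submitters' processing notes, reads were handled with Trimmomatic 0.39, HISAT2 2.2.1, SAMtools, DESeq and DESeq2 on GRCm39; nothing in the sources used here names the counter, its strand setting or its treatment of reads that match several genes. The authors deposited raw read counts per Ensembl gene, which were used for all tests. The deposited normalized values (a signal equal to the counts divided by 1 factor per library, as checked) and the FPKM values the authors deposited (the normalized values divided by 1 constant per gene) were used for levels. Symbols were found for 52073 of 56980 gene identifiers, and gene order, coding sequences and promoters were taken from the GRCm38.p6 annotation and RefSeq tables. All 5 members matched and passed the filter on low counts in each tissue, C1s2 in pancreas through its B6 libraries.

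Each tissue was fitted with edgeR 4.0.16 (quasi-likelihood F test, R 4.3.3), 1 mean per group, TMM factors and filterByExpr (minimum count 10, minimum total 15). P-values were adjusted by Benjamini-Hochberg over all genes tested in a comparison, with a threshold of 0.05, and all p-values are two-sided. Sexes were averaged in the strain, diet and age comparisons. One estimate of the spread per gene served all 16 groups of a tissue, so the standard error of C1s1 in B6 also holds the scatter of near-zero TH counts. Tissue differences used 100000 permutations over mice with a pseudocount of 0.5 CPM. The fit was tested on simulated data for the strain comparison on chow at 20 weeks in liver and soleus, not in fat or pancreas. Of 100 genes with a log2 change of 1, it found 100 in liver and 91 in soleus. Of 100 with a change of 0.5, it found 73 in liver and 41 in soleus, so changes of that size can be missed. Of the unchanged genes, 10 were called in liver and 5 in soleus. The precision of low values is limited by depth, and group sizes were 5 to 10.

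Alternatives were DESeq2 1.42.0, RLE factors, no filter, fits of the compared groups, the replicate number as a block, leaving out each library of the 1 group of 5, and leaving out 10 libraries whose deviation from their group exceeded 2 times the tissue median. The last, and a pseudocount of 0.1 CPM, were chosen after seeing the data. The members and lists were chosen with earlier results of these data known. Named genes were all members, neighbours called in every tissue tested, the 3 nearest tested on each side, up to 3 complement genes with the largest called change per tissue and direction on chow at 20 weeks, and the 5 genes with the highest r to each member. Some genes that this rule picks are not reported here. C1q chains, C2, C4b and Serping1 were named besides for their contact with C1r and C1s.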

Additional observations from a re-analysis of the deposited data

Results flagged for a closer look

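Single libraries far from the others of their group were looked for in 320 sets of 1 gene in 1 group, and 31 were found, 9 of them for C1s1 in TH. For continuous values in independent sets chance alone gives about 1 in 20. Sets with a few reads beside zeros are flagged more readily, and 1 library can be flagged for several genes. The 31 can therefore not be set against that rate. The values are CPM. The male B6 liver on the high-fat diet at 5 weeks, replicate 4, was low for all 5 genes, with C1s1 at 350.3, C1ra at 250.8, C1rl at 130.1, C1rb at 89.7 and C1s2 at 52.9, and is 1 of the libraries that stood apart over all genes. The female TH soleus on the high-fat diet at 5 weeks, replicate 7, was high for C1s1 (1.08) and C1s2 (2.00).

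For C1s1 in TH, high libraries were a male liver on chow at 20 weeks (6.57, from 43 reads, with the next at 1.13), a female liver on chow at 20 weeks (2.24), a female liver on the high-fat diet at 20 weeks (1.83) and a male fat on chow at 20 weeks (2.42). In TH pancreas 4 single libraries with 1 or 2 reads stood out among zeros or near-zeros, a female at 0.354 and a male at 0.451 on chow at 20 weeks, a male at 0.495 on the high-fat diet at 20 weeks and a female at 0.0658 on the high-fat diet at 5 weeks. In B6, C1s1 was low in a male liver on chow at 5 weeks (426.4) and a female soleus on the high-fat diet at 20 weeks (17.2).

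C1s2 was high in a female TH fat on chow at 5 weeks (14.7), a male B6 liver on the high-fat diet at 20 weeks (117.9), a male TH liver on chow at 5 weeks (4.60), a female TH pancreas on the high-fat diet at 20 weeks (1.34) and a male TH pancreas on chow at 5 weeks (2.32). C1ra was high in a female B6 fat on the high-fat diet at 20 weeks (235.8) and a female TH liver on chow at 5 weeks (223.8). It was low in a female TH pancreas on chow at 20 weeks (2.38) and a female B6 soleus on the high-fat diet at 5 weeks (5.06). C1rb was low in a female TH liver on the high-fat diet at 5 weeks (336.8). C1rl was low in a female (9.08) and a male (9.51) B6 fat on chow at 20 weeks, and high in a female B6 pancreas on the high-fat diet at 20 weeks (23.4) and a female B6 soleus on chow at 20 weeks (1.19).

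Differences between the strains in a response were called for C1s2 in liver (diet at 20 weeks, 0.77, and age on chow, -0.64) and in soleus (diet at 20 weeks, -1.09), for C1ra in liver (diet at 20 weeks, 0.38) and for C1rl in pancreas (diet at 20 weeks, -0.46). Differences of the strain effect between tissues of the same mice were called for C1s2 (liver minus fat -2.31, liver minus soleus -2.56, fat minus soleus -0.45, which did not pass with a pseudocount of 0.1 CPM), for C1rb (liver minus fat -0.36, liver minus soleus -0.48) and for C1rl (liver minus soleus -0.47, fat minus soleus -0.63).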

How the results depend on the processing

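The strain calls of C1s2, C1ra and C1rb kept their direction and their side of the threshold in all 4 tissues under every alternative run. C1rl in fat on chow at 20 weeks, at 0.06 and not called, was at -0.011 without the libraries that stood apart. C1rl in pancreas on the high-fat diet at 5 weeks, at -0.00, was at 0.011 without a filter, at 0.0055 in a fit of the groups compared, at 7.5e-05 without those libraries and at 0.0012 by DESeq2. In soleus on chow at 5 weeks C1rl was called in 1 of 5 fits that each left out 1 male TH library, with values from 0.44 to 0.62. With the replicate number as a block 5 neighbouring genes were called in pancreas in place of 8, and with no filter 16 complement genes in place of 10. The C1s1 log2 ratio of TH to B6 moved most in soleus, from -8.08 to -8.17 in the authors' units. With a pseudocount of 0.1 CPM, chosen after seeing the data, the fat minus soleus contrast of the strain difference was no longer called for C1s2 (-0.10, adjusted permutation p = 0.62) and was at 0.040 for C1ra, not called in either case.

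Of the smaller responses, the B6 liver diet call of C1rl at 20 weeks (adjusted p = 0.055) and of C1ra at 5 weeks (0.071), the B6 liver sex call of C1ra (0.078), the TH liver sex call of C1rl (0.11) and the difference in age response of C1s2 in liver (0.054) were lost with no filter. A fit of the groups compared lost C1ra (0.099) and the TH sex call of C1rl (0.069). The B6 liver sex call of C1s2 was lost with RLE factors (0.052), with no filter (0.11) and with the block (0.052). Of 173 member responses not called, 7 of the 168 that could be fitted were called in a fit of the groups compared, 9 without the libraries that stood apart and 1 by DESeq2. The first include C1ra (-0.46) and C1rb (-0.50) between the sexes in TH fat, and both alternatives call the strain difference in diet response of C1rb in liver at 20 weeks (adjusted p = 0.023 and 0.012).

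The replicate numbers do not pair the mice. The median correlation of same-numbered libraries was 0.001 in fat, 0.005 in pancreas and 0.013 in both liver and soleus, and 20 of 96, 16 of 110, 18 of 96 and 15 of 97 libraries, in that order, correlated best with their own number. The block moved the genes called in pancreas from 767 to 433 for diet in TH at 20 weeks, from 178 to 117 for the diet response and to 141 for sex in B6, where 1.60% of 13367 were called without it. Fits of the groups compared gave 477 and 56 for the first and second of these. With no filter the difference in age response in liver called 147 genes, against 1.44% of 17243 with it, and without the libraries that stood apart age in B6 fat called 4933 in place of 2758. Low depth in pancreas limits C1s1 and C1s2 there.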
